A study of Caenorhabditis elegans with 4 samples.

Results

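The centre of chromosome V of Caenorhabditis elegans carried 408 of the 6095 regions (6.69%) called as bound by FOS-1::GFP in first-stage larvae. These 408 peaks are all lines of the authors' combined peak list that lie on chromosome V with a midpoint from 6974716 to 13949433, the central segment when the 20924149 bp of that chromosome are cut into 3 equal pieces. The rule uses position and no measured value, but the region was picked with the low peak density and replicate overlap of chromosome V already known. The first member spans 6994186 to 6994324 and the last 13909425 to 13909766. The nearest peaks left out span 6893895 to 6894004 on the lower side and 13993104 to 13993764 on the upper side. Positions follow the WS220 build of WormBase.

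The study mapped FOS-1 binding by chromatin immunoprecipitation and sequencing (ChIP-seq) with 2 ChIP libraries and 2 libraries of input DNA, which is sheared chromatin put aside before precipitation. Every library came from fed L1 hermaphrodites of strain OP304, grown at 20 °C on bacteria and fixed in 2% formaldehyde. These worms carry the unc119(ed3) mutation and the transgene wgIs304, made by bombardment. It joins a rescuing unc119 to fos-1::TY1 EGFP FLAG, which encodes FOS-1 fused to green fluorescent protein (GFP). Precipitation used a goat antibody against GFP. The genotype lists no mutation of the endogenous fos-1 gene, and what was precipitated is the tagged copy. Whole larvae were used, so all tissues are mixed. The ChIP libraries held 3763795 uniquely mapped reads (replicate 1) and 2961912 (replicate 2), and the input libraries 2762470 and 2799514.

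FOS-1 belongs to the Fos family of basic leucine zipper transcription factors, which bind DNA as dimers, and in this worm it is best known for letting the anchor cell breach the basement membrane during vulval development, later in larval life than the stage studied here. The autosomes of this species have gene-dense centres with little recombination and arms that recombine more and hold more repeats. The arms of chromosome V are known for large families of chemoreceptor genes. A peak is a stretch where ChIP reads exceed input, and its q value, the authors' own, is an adjusted p that is lower for stronger evidence. A higher −log10 q thus means a stronger call. Peaks were not assigned to genes and no sequence is shown, as no genome or annotation of WS220 was used here.

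The strongest calls of the V centre were scattered along the region, and nearly all were found in both replicates. Among the 20 members with the lowest q, 19 overlapped a peak in both replicate lists, and they fell in 11 of the 14 500-kb bins. The closest pair had midpoints 39.1 kb apart and the most distant neighbours 1.22 Mb. Their widths ran from 362 to 1893 bp with a median of 733.5 bp, and 7 exceeded 1000 bp. Overlap with both lists was about as common among strong calls in other centres. At a combined −log10 q of 15 or more, replicate 2 overlapped 28 of 29 members. In the centres of II, III and IV it overlapped 101 of 103 such peaks, and replicate 1 overlapped all of these peaks.

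The lowest q belonged to the peak at 9342938 to 9344830. It was also the widest member, at 1893 bp, and had q = 5.28e-60 in the combined list, 1.09e-31 in replicate 1 and 3.57e-15 in replicate 2. It ranked 41 in the whole combined list, so 40 peaks elsewhere had a lower q.

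The second, at 8606101 to 8606753, was 653 bp wide, with q = 2.12e-55 in the combined list, 9.52e-33 in replicate 1 and 1.37e-19 in replicate 2. In both replicate lists this narrower peak had a lower q than the first. It lay in the bin with the fewest members, from 8474716 to 8974716, where 12 combined peaks were called.

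The next, at 9730778 to 9732257 (1480 bp), had a combined q of 9.76e-48. It was followed by the peak at 11979777 to 11980546 (770 bp), with a combined q of 3.42e-44. Ranks 5 and 6 were at 10466414 to 10467600 (1187 bp, q = 1.22e-38) and 11078317 to 11079221 (905 bp, q = 3.02e-38). Replicate 1 gave these 4 regions q values from 3.77e-26 to 9.87e-21, and replicate 2 from 7.02e-14 to 3.68e-09, so replicate 2 had the weaker call at each.

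The next 4 by q were at 10897186 to 10897564, 10536777 to 10537210, 11531816 to 11533652, and 9546777 to 9547795. Their combined q ran from 9.84e-33 to 1.26e-25. The remaining 10 were weaker, down to q = 4.10e-18 at 13565158 to 13565667. Those in bins 2 to 4 lay at 7727752-7728857, 7854136-7855420, 8348915-8349440 and 8500342-8500720. Those further up lay at 10174488-10175184, 10715527-10716302, 10965479-10965863 and 12343547-12343908. The one without a replicate 2 counterpart was at 11039410 to 11039996, with q = 5.67e-19 in the combined list and 1.19e-14 in replicate 1. Absence from the replicate 2 list means no call there, not absence of binding.

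**Figure D1:**
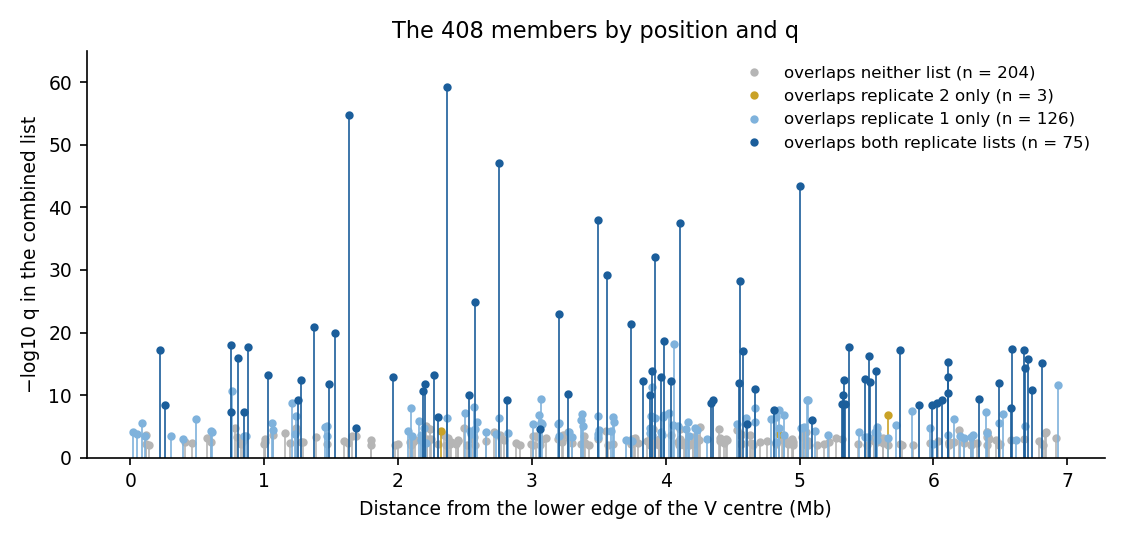
Each stem is 1 of the 408 members, placed by its distance from the lower edge of the V centre (Mb, x axis) with its −log10 q in the combined list (y axis), coloured by which replicate lists it overlaps. Most of the tall stems are among the 75 peaks that overlap both lists, which are spread over the region. The 204 peaks that overlap neither list stay low.

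The V centre held a somewhat smaller share of the very strongest calls than of the whole list. By q, 4 members ranked among the first 100 of the combined list and 24 among the first 500 (4.80%), beside 6.69% of all combined peaks. These counts are small, and their difference from that share was not tested. The median q of the V centre was 0.000235 (quartiles 4.68e-07 and 0.00258), against medians of 0.000138 in the centre of II, 4.87e-05 in that of III and 0.000117 in that of IV. The 3 other centres were cut in the same way, with the end of the last peak on the chromosome standing for its length. The whole list was ranked by q and divided into 4 equal rank groups. Rank group 1, with q up to 3.24e-08, held 80 members, or 11.5 per Mb (exact Poisson 95% interval 9.09 to 14.3). The pooled centres of II, III and IV held 307 such peaks, or 19.8 per Mb (17.6 to 22.1). In rank group 4 the V centre had 15.9 peaks per Mb (13.1 to 19.2) and the pooled centres 18.6 (16.5 to 20.9). Against the pooled centres, the intervals of the densities did not overlap among the strongest calls, while among the weakest they did. Taken singly in rank group 1, the centre of IV had 17.3 per Mb (14.1 to 21.1), and its interval overlapped that of the V centre. The intervals of II (16.2 to 24.1) and III (18.7 to 27.7) did not. The difference between rank groups was not tested.

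Members were as wide as peaks in the other centres. Their median width was 317.5 bp (quartiles 202 and 422), against 315 bp in the centre of II, 309 bp in that of III and 313.5 bp in that of IV. The range in the V centre was 1 to 1893 bp, and 21 members (5.15%) were narrower than the 36-bp reads. In the V centre, 11 peaks (2.70%, exact 95% interval 1.35 to 4.77) exceeded 1000 bp, against 24 (5.44%, 3.52 to 7.99) in the centre of II, 6 in that of III and 11 in that of IV. Wider members had stronger calls, with a Spearman rho of 0.63 between width and −log10 q over the 408 peaks, and 0.67 to 0.69 in the other 3 centres. This is a description across peaks of the same libraries.

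The widest members after the first were at 11531816 to 11533652 (1837 bp), 13085109 to 13086750 (1642 bp), 9730778 to 9732257 (1480 bp) and 13656276 to 13657733 (1458 bp). All 5 overlapped both replicate lists. Of these, the 1837-bp, 1642-bp and 1458-bp peaks each overlapped 2 separate replicate 1 peaks and 1 replicate 2 peak, so replicate 1 reported as pairs what the merged reads gave as single regions. Width and strength did not run in step among these 5. The peak at 13085109 to 13086750 had a combined q of 1.37e-13. The better of its 2 replicate 1 peaks had q = 0.00184, and its replicate 2 peak q = 2.1e-05. For the 1458-bp peak the combined q was 4.75e-15. The better of its 2 replicate 1 peaks had q = 0.000116, and its replicate 2 peak q = 0.00683.

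Binding regions were less dense in the V centre than in the centres of II, III and IV. The combined list gave 58.5 peaks per Mb (exact Poisson 95% interval 53.0 to 64.5), against 86.7 in the centre of II, 89.1 in that of III and 71.1 in that of IV. The V centre thus had 0.675, 0.657 and 0.823 times their densities (exact binomial test on counts given the lengths, two-sided, Benjamini-Hochberg adjusted over the 3 pairs, p = 1.65e-08, 6.28e-09 and 0.00563). The difference was larger in each replicate list. Replicate 1 called 210 peaks in the V centre (30.1 per Mb), against 67.0, 66.4 and 54.4 per Mb in the centres of II, III and IV, which is 0.449, 0.453 and 0.553 times as many (largest adjusted p = 1.64e-11, exact binomial test). Replicate 2 called 78 (11.2 per Mb), against 29.3, 35.9 and 23.2 per Mb, or 0.382, 0.311 and 0.482 times as many (largest adjusted p = 1.89e-07, exact binomial test). The V centre was also lowest in covered bases, with 2.07% under combined peaks, against 3.46%, 3.20% and 2.55% of the centres of II, III and IV. Within chromosome V the centre was denser than the remainder, where the combined list gave 29.1 peaks per Mb, a ratio of 2.01 (exact binomial p = 7.06e-23). The centre of X had 58.8 combined peaks per Mb, a level close to that of the V centre, and the centre of I had 96.8. These tests, and the Fisher's exact tests that follow, treat peaks as independent. Neighbouring peaks cluster and all come from the same 2 ChIP libraries, so the tests overstate the number of independent units, and no test over animals was possible. The low density and replicate overlap of chromosome V were known from these lists beforehand, so the tests are no independent support for either.

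Peaks were unevenly spread within the region. Over the 14 bins of 500 kb, the last of them 474717 bp long, combined counts ran from 12 to 45 with a median of 29. The fullest bin, from 10474716 to 10974716, had 45 combined peaks, 24 of replicate 1 and 8 of replicate 2. The emptiest, from 8474716 to 8974716, had 12 combined peaks, 4 of replicate 1 and 4 of replicate 2.

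The lower end of the region was sparse and its middle full. The first 4 bins held 67 combined peaks in 2 Mb (33.5 per Mb), beside 164 peaks, or 82 per Mb, in bins 7 to 10. The remaining 10 bins after the first 4 held 341 peaks, or 68.5 per Mb. The first 4 bins had 36 replicate 1 peaks and 16 replicate 2 peaks, while bins 7 to 10 had 78 and 23.

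Peaks called in both replicates occurred in every bin, with between 2 and 8 in each. Peaks overlapping neither replicate ran from 5 to 24 per bin. The variance of the bin counts over their mean was 4.08 in the combined list, 1.77 in replicate 1 and 0.60 in replicate 2. Mean counts per bin were 29.1, 15 and 5.57. The ratio tends to be lower for a thinner list, so it does not rank the lists by evenness. In the other centres, over bins of at least 250 kb, the combined counts ran from 31 to 55 on II, 34 to 71 on III and 22 to 48 on IV, with ratios of variance to mean of 2.05, 3.29 and 2.27. The V centre thus had the lowest bin of the 4 centres and the largest ratio in the combined list. In the replicate lists, where it had fewer peaks, its ratio was the smallest. The ratios on II, III and IV were 2.19, 2.85 and 2.68 in replicate 1, and 1.24, 2.18 and 1.20 in replicate 2. These differences were not tested.

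**Figure D2:**
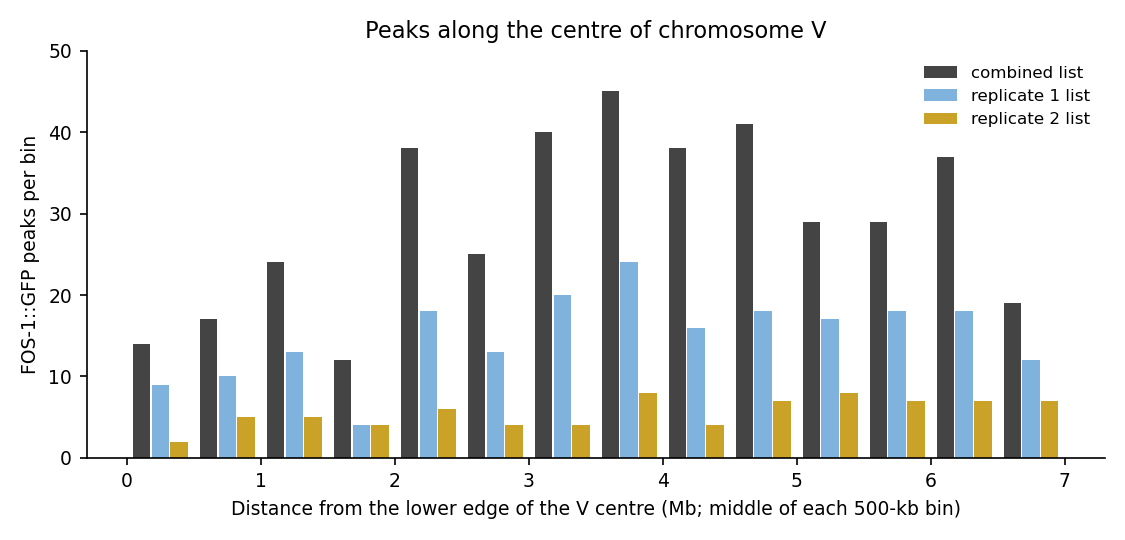
Number of FOS-1::GFP peaks (y axis) in each 500-kb bin of the V centre, by distance from its lower edge (Mb, x axis), for the combined, replicate 1 and replicate 2 lists. Combined counts run from 12 to 45 and are low in the first 4 bins, while replicate 2 counts run from 2 to 8.

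Spacing showed both tight clusters and long empty stretches. The median gap between neighbouring members was 7.67 kb (quartiles 1.57 and 24.0 kb), against 4.64 kb in the centre of II, 5.09 kb in that of III and 6.05 kb in that of IV. No gap between members was shorter than 215 bp, and the shortest in the other 3 centres was 200 bp. Gaps of 2000 bp or less made up 123 of 407 (30.2%, exact 95% interval 25.8 to 34.9) in the V centre, against 34.8% on II, 29.4% on III and 31.7% on IV, all within that interval. At the other end, the V centre had 37 gaps over 50 kb (5.30 per Mb), against 17 (3.34 per Mb), 14 (3.05) and 18 (3.09) in the centres of II, III and IV. The centre of X had 25 (4.25 per Mb) and a longer median gap of 8.25 kb. No test was run on these counts.

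The longest gap was 162 kb, between 8774157 and 8936097. The next were 140 kb, between 7587971 and 7727752, and 115 kb, between 7855420 and 7970533. None of the 3 contained a peak of either replicate list. The longest gaps in the centres of II, III and IV were 99.8, 87.5 and 118 kb.

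Joining members no more than 2000 bp apart left 285 regions, beside 288, 289 and 283 in the centres of II, III and IV, although the V centre is the longest of them at 6.97 Mb. Of these 285, 218 were single peaks and 67 were clusters of 2 to 8. The largest cluster held 8 peaks over 9.67 kb, at 13081045 to 13090716, with 3 in both replicate lists and 4 in neither. A cluster of 7 peaks at 11531054 to 11539596 held the second widest member, and its other 6 peaks overlapped neither replicate list. A further cluster of 7, at 13371401 to 13380506, had no peak in both lists and 5 in neither. The share overlapping neither list was 52.1% for the 190 clustered members and 48.2% for the 218 single ones.

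The V centre held many regions that only the merged reads brought out. Of its 408 combined peaks, 204 (50.0%, exact 95% interval 45.0 to 55.0) overlapped no peak of either replicate list by 1 bp or more, where the share over the whole combined list was 35.8%. In the centres of II, III and IV these shares were 27.9%, 25.9% and 28.3%. The differences of 22.1, 24.1 and 21.7 percentage points were each past the threshold of 0.05 (Fisher's exact test, two-sided, adjusted over the 3 pairs, p = 6.37e-11, 3.64e-12 and 1.69e-10). The high share on chromosome V was known from the same lists before the region was chosen, so these tests are no independent support for it. Peaks of chromosome V outside the centre gave 51.0%, a difference of -0.985 percentage points within counting error (p = 0.780 by Fisher's exact test). The high share was thus also measured on the rest of chromosome V. The centre of chromosome I stood at 43.8% and that of X at 30.1%. Among the 263 members with q of 0.001 or lower the share was 26.6%, still past the threshold against each of the 3 centres (largest adjusted p = 4.52e-07, Fisher's exact test).

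Only 75 members (18.4%, exact 95% interval 14.7 to 22.5) overlapped both replicate lists, where 29.1% of the whole combined list did. The centres of II, III and IV had 28.6%, 37.4% and 29.95% (Fisher's exact test, two-sided, adjusted p = 0.000506, 4.38e-09 and 0.000186). Peaks of V outside the centre had 19.0% (Fisher's exact p = 0.858), and the centre of I had 20.8%, so the low share was also measured there. The centre of X had 30.3%. Replicate 1 overlapped 49.3% of members, beside 61.8% of the whole list and 69.6% to 71.4% of the other 3 centres. Replicate 2 overlapped 78 members (19.1%), beside 31.5% of the whole list and 31.1% to 40.1% of the other 3 centres. Another 126 members overlapped replicate 1 only and 3 replicate 2 only. Merging the same libraries gave the combined list, so its overlap with them is no independent measure of reproducibility.

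**Figure D3:**
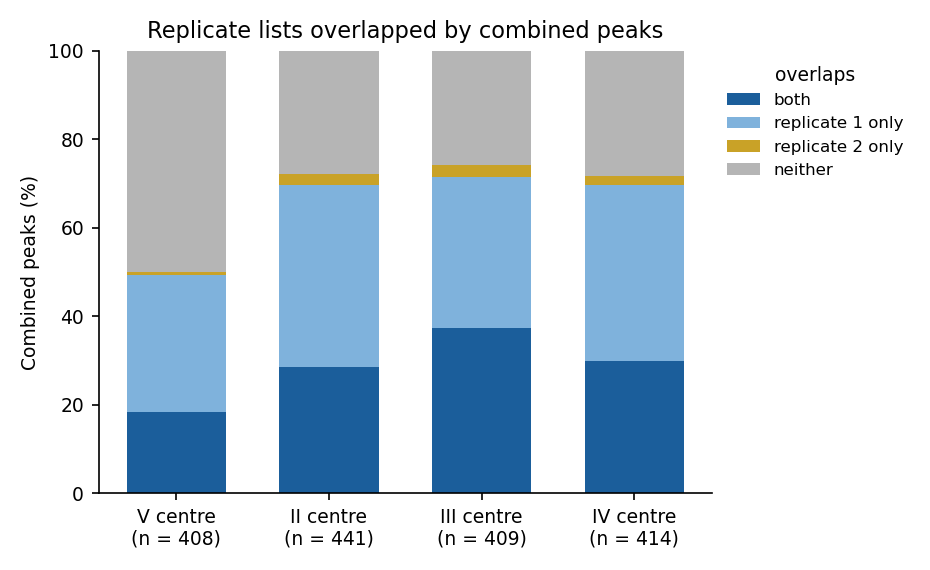
Share of combined peaks (%, y axis) that overlap both replicate lists, replicate 1 only, replicate 2 only or neither, in the centres of V, II, III and IV (x axis, number of peaks below each bar). The grey part is 50.0% in the V centre, against 25.9% to 28.3% in the other 3.

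Members without a replicate counterpart were mostly weak and narrow. Their median q was 0.00215 and their median width 248 bp, with none above 1000 bp. Members in both lists had a median q of 3.18e-13 and a median width of 480 bp. The unmatched peaks of the pooled centres of II, III and IV had a median q of 0.00305 and a median width of 185 bp, so unmatched peaks in the V centre were the wider and had the lower q. Among peaks over 200 and up to 500 bp wide, 115 of 236 members (48.7%) were unmatched, against 144 of 723 peaks (19.9%) in the pooled centres. The median q of these peaks was 0.000136 in the V centre and 3.82e-05 in the pooled centres, so their strength was not matched. From 36 to 200 bp the unmatched shares were 77.2% and 55.5%, and over 500 bp 13.9% and 5.13%. Under 36 bp they were close, at 85.7% of 21 members and 87.1% of 62 peaks.

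The 5 unmatched members with the lowest q had q values from 6.88e-06 to 2.01e-05. The lowest belonged to the 508-bp peak at 9186103 to 9186610. Next came a 389-bp peak at 11228692 to 11229080 and a 330-bp peak at 7759311 to 7759640. The last were a 189-bp peak at 9465673 to 9465861 and one of 33 bp, narrower than a read, at 8212918 to 8212950.

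Peaks were next compared within the rank groups by q. In rank group 1, 0 of 80 members lacked a replicate counterpart (upper limit of the exact 95% interval 4.51%). In the pooled centres of II, III and IV, 0 of 307 peaks did (upper limit 1.19%). These limits cover counting error only. In rank group 2 (q from 3.27e-08 to 0.000102) the share was 21.0% of 100 members, against 6.45% of 341 peaks in the pooled centres. In rank group 3 (q up to 0.00201) it was 66.7% of 117 members, against 33.2% of 328 peaks. In rank group 4 it was 94.6% of 111 members, against 74.7% of 288 peaks. Fisher's exact tests, adjusted over the 4 rank groups, gave p = 9.28e-05, 2.12e-09 and 4.44e-06 for groups 2 to 4. Within these 3 rank groups the unmatched share was thus higher in the V centre. The q values inside a rank group were not matched further. The median −log10 q was 5.03 in the V centre and 5.32 in the pooled centres in rank group 2, 3.22 and 3.23 in group 3, and 2.27 and 2.31 in group 4. With only peaks of q of 0.001 or lower ranked, group 2 held 0% unmatched members and showed no higher share (adjusted p = 1, Fisher's exact test). In the centre of I, the shares in rank groups 2 to 4 were 25.2%, 67.6% and 97.3%.

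**Figure D4:**
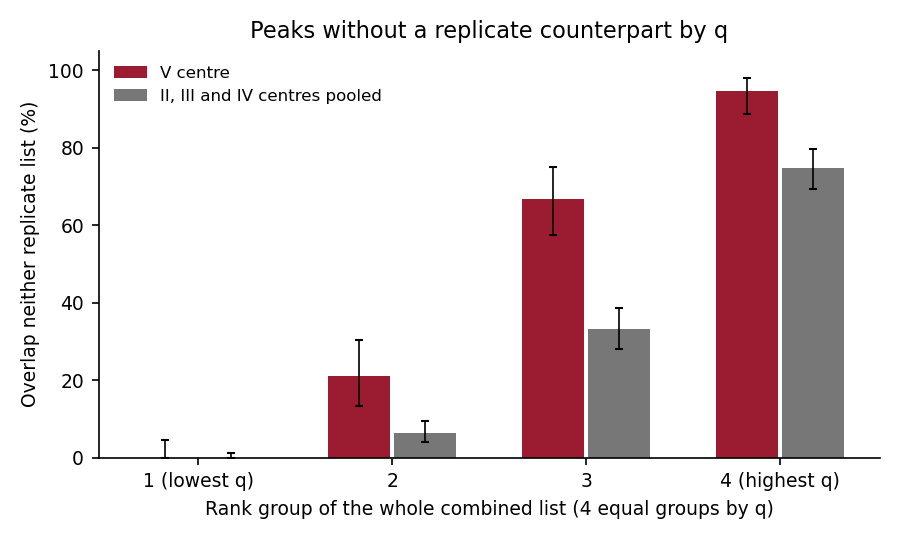
Share of combined peaks overlapping neither replicate list (%, y axis, bars with exact 95% intervals) by rank group of the whole combined list ordered by q (x axis), for the V centre and for the pooled centres of II, III and IV. The V centre stands higher in rank groups 2 to 4, and both are at 0 in group 1.

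The split appeared also in replicate 2. Among peaks of rank group 2, replicate 2 overlapped 9 of 100 members, against 128 of 341 peaks (37.5%) in the pooled centres. In rank group 1 it overlapped 68 of 80 members (85.0%), against 276 of 307 peaks (89.9%). The gap between the V centre and the other centres was thus wider in rank group 2 than in group 1, a description with no test.

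The strength that replicate 1 gave to a region of known combined q was lower in the V centre than in the centres of II, III and IV. All 88 members with a combined −log10 q of 7 or more overlapped a replicate 1 peak, as did all 332 such peaks in the centres of II, III and IV, so no peak is lost from this view. For combined −log10 q from 7 to 10, the median −log10 q of the overlapping replicate 1 peak was 4.16 (quartiles 3.57 and 4.65) for 30 members, against 5.17 on II, 5.28 on III and 5.44 on IV. From 10 to 15 it was 5.65 (4.79 and 6.80) for 29 members, against 7.47, 7.42 and 7.37. From 15 upwards it was 10.3 for 29 members, against 13.97, 12.97 and 15.6. In that top band the combined median was itself lower in the V centre (18.6) than on II, III and IV (24.1, 19.6 and 24.2), while from 10 to 15 it was 12.0, against 12.0, 11.8 and 11.4, and from 7 to 10 it was 8.37, against 8.11, 8.16 and 8.54.

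Where replicate 2 had a peak, the V centre again had the lowest median of the 4 centres. From 10 to 15, 26 of 29 members overlapped replicate 2, with a median −log10 q of 3.14, against 3.91, 3.99 and 4.26 on II, III and IV. The low replicate 1 values were not found in the V centre alone. Peaks of V outside the centre had replicate 1 medians of 4.53, 5.74 and 10.2 in the 3 bands, with 2 of their 100 peaks left out for want of a replicate 1 counterpart, and the centre of I had 3.94, 5.74 and 11.6. The q values come from separately called lists and are given side by side as a description, without a test.

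**Figure D5:**
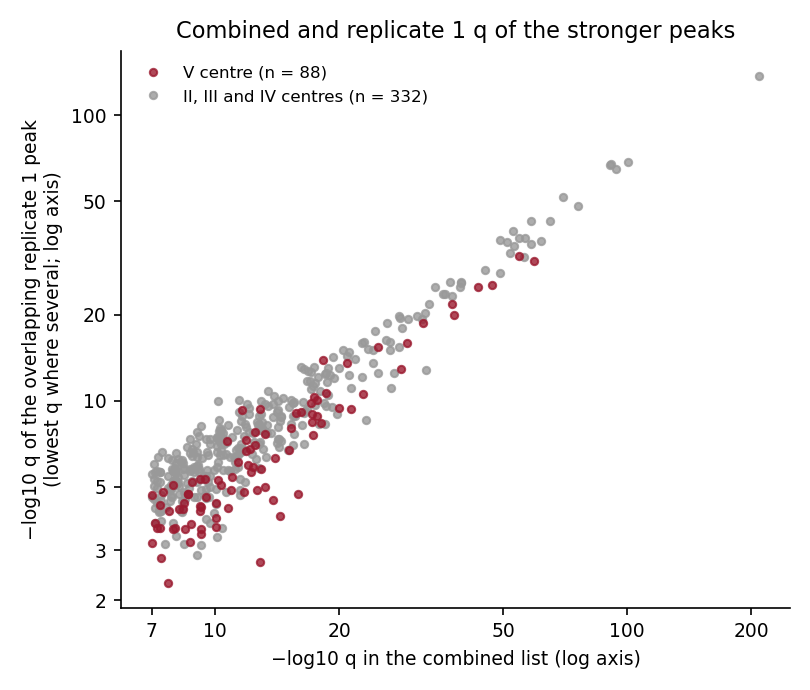
Replicate 1 against combined −log10 q (both axes log) for combined peaks at 7 or more, with 88 in the V centre and 332 in the centres of II, III and IV. The points of the V centre lie mostly along the lower side of the cloud.

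Seen from the replicate lists, the V centre had few calls, and nearly all were part of the combined list. Replicate 1 had 0.515 peaks per combined peak in the V centre, against 0.773, 0.746 and 0.766 in the centres of II, III and IV. Replicate 2 had 0.191, against 0.338, 0.403 and 0.326. Of the 210 replicate 1 peaks, 5 (2.38%) had no combined counterpart, against 6.74%, 3.61% and 7.57%. All 78 replicate 2 peaks overlapped a combined peak, as did all those in the other 3 centres. The centre of I again had values near those of V, with 0.578 replicate 1 and 0.228 replicate 2 peaks per combined peak and 2.14% of replicate 1 peaks without a combined counterpart.

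The replicate lists overlapped each other about as often as elsewhere. Of the 78 replicate 2 peaks of the V centre, 75 (96.2%, exact 95% interval 89.2 to 99.2) overlapped a replicate 1 peak, against 91.3%, 92.7% and 92.6% in the centres of II, III and IV, each inside that interval. Of the 210 replicate 1 peaks, 76 (36.2%, 29.7 to 43.1) overlapped a replicate 2 peak, against 37.5%, 50.2% and 38.8%, of which the value on III lies above the interval. Replicate peaks of the V centre were somewhat wider, with medians of 351.5 bp in replicate 1 and 348.5 bp in replicate 2, against 293 to 314 bp and 301 to 311 bp in the other 3 centres. Peaks narrower than a read were 4 of 210 (1.90%) in replicate 1, against 6.16%, 3.93% and 4.73%. The centre of I lay near the V centre in each of these, with medians of 338 and 348 bp and 2.14% of its replicate 1 peaks narrower than a read.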

How the data were processed

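The 3 peak lists are the authors' own, made with PeakSeq per the file headers and source columns. The combined list was called on merged ChIP alignments and each replicate list on 1 library, per the deposited sample table. Each peak carries a q value (an adjusted p-value) deposited by the authors, at most 0.00997 in the combined list. Reads of 36 bp were aligned to WS180 and peaks carried over to WS220, per the deposited sample table and file headers. Headers name 4, 3 and 2 peaks altered in that step, with 0 in the V centre. The deposited table gives whole-number read counts per library, not normalized. Which aligner was used is not stated in these sources.

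Nothing in the labels says whether replicates came from separate cultures, so their spread may be technical. Overlap means at least 1 bp. Shares have exact (Clopper-Pearson) 95% intervals and were compared by Fisher's exact test, and densities by exact binomial tests. Widths, q, gaps and bins were described without tests. For V the length in the selection rule was used, and for other chromosomes the last peak end in any list. Regions named are the 20 members with the lowest q, the 5 widest, the 5 unmatched with the lowest q, edge peaks, extreme bins and the 3 longest gaps. The largest clusters, the bands of −log10 q, the bin groups and the width classes were added after values were seen. The members and comparisons were chosen with earlier results of these data known, among them that chromosome V as a whole had few peaks and many without a replicate counterpart. The overlap, gap and test code was tested on simulated data. Alternatives changed the overlap rule, q threshold, narrow peaks, joining, region extent, list and bins. Tests ran in scipy 1.17.1 and tables in pandas 2.3.3 with numpy 2.4.6, under Python 3.11.15, with figures from matplotlib 3.10.9.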

Additional observations from a re-analysis of the deposited data

How the results depend on the processing

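Of 81 values under alternative settings, 63 had the direction and call of the main value or, where there was no test, lay within 1.5 times a count or inside the 95% interval of a median. This held for all 9 alternatives of the unmatched share (26.6% to 80.9%), all 9 of the share in both lists and all 7 of the density. Not all of these were separate checks. Counting overlap with 1 list alone turned the share in both lists into the complement of the unmatched share, with the same test. These values were 49.3% and 50.7% for replicate 1, and 19.1% and 80.9% for replicate 2. Taking the length of V from its last peak kept the same 408 members, so their shares could not change. With q of 0.001 or lower, by construction, 263 members were left, with a median width of 364 bp, a median gap of 12417 bp and 19 peaks per bin, and rank group 2, then taken over the stronger peaks, had 0% unmatched members (adjusted p = 1, Fisher's exact test). Joining neighbours gave a median width of 360 bp and a median gap of 15201.5 bp, and the weakest density comparison kept an adjusted p of 0.0391 (exact binomial test). With 250-kb bins the median was 14 per bin. With the central 50% of each chromosome, 1.68% of members of rank group 1 were unmatched, past the threshold (Fisher's exact, adjusted p = 0.0442). With 1 replicate list alone there were 78 to 210 members, 11.2 to 30.1 per Mb, 5.5 to 16.5 per bin, with median widths of 348.5 to 351.5 bp and gaps of 17348 to 50745 bp. Counting overlap with 1 list alone left 94.6% to 100% of members of rank group 4 unmatched, and with replicate 2 alone that group was no longer past the threshold.

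No paired analysis was possible because ChIP and input libraries enter only through the authors' peak calling. The length of II, III and IV from a header was not run, since the headers used here give none. ChIP replicate 2 had the fewer unique reads and the shorter list, and the part of depth in these results was not tested.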
